A study of Drosophila melanogaster with 22 samples.

Results

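S2 cells given dsRNA against Med12 were set directly against S2 cells given dsRNA against Med13, with no control array in the test. The members were the 4 arrays whose titles name Med12 dsRNA and the 4 whose titles name Med13 dsRNA, 8 of the 22 arrays of the series. S2 cells are a line of Drosophila melanogaster cultured from embryos, with traits of blood cells (haemocytes). All cells, in both groups, were given 20 µg of double-stranded RNA (dsRNA), which they cut into short RNAs that destroy matching transcripts, and were harvested 72 h later. The other 14 arrays carried dsRNA against Cdk8 (2 arrays) or CycC (4), or against GFP (4) or luciferase (Luc, 4), reporters that fly cells lack. The 8 GFP and Luc arrays appear below only to place a level. The titles number the arrays 1 to 4 within each dsRNA, but whether each array stands for its own culture is not stated. The p-values below therefore cover only the spread among arrays, which may be technical.

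Med12 and Med13 are large proteins of the Cdk8 module, a detachable part of the Mediator complex that links transcription factors to RNA polymerase II. Med13 forms the contact between the module and core Mediator, and Med12 binds and activates the kinase pair Cdk8 and Cyclin C. In flies the genes are called kto (Med12) and skd (Med13), and mutants of either gene have closely similar phenotypes. The comparison asks where loss of these partners leaves a different set of transcripts.

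Every level below is the log2 of a GCRMA intensity, and every difference is Med12 dsRNA minus Med13 dsRNA on that scale, so that 1 is a doubling. Of 13 haemocyte markers 11 lay over the detection floor of log2 4 on at least 2 of the 8 arrays, among them the clotting gene Hml (12.42 to 12.57 in Med12 arrays and 12.62 to 12.73 in Med13 arrays) and the collagen gene vkg (15.05 to 15.16 and 15.18 to 15.22). The phagocytic receptor gene NimC1 (at most 2.32) and the surface gene He (3.04 to 4.24) did not, but He was at 5.53 to 6.74 on the GFP and Luc arrays. None of the 5 annotated fat body markers or the 3 annotated muscle markers passed, against 1 of 4 germline markers (aub) and 1 of 3 neuronal markers (elav). Of 5 crystal cell markers 2 passed (PPO1 and PPO3), and of 4 lamellocyte markers 2 (cher and mys). The median of the tested genes lay between 9.16 and 9.22 on the 8 arrays.

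The targeted transcripts came first. kto stood at 5.40, 5.22, 5.42 and 5.33 with Med12 dsRNA, against 8.75, 8.63, 8.70 and 8.73 with Med13 dsRNA. The GFP and Luc arrays ranged from 8.53 to 8.81, so that kto was depleted in the Med12 arrays alone. The difference was -3.36 ± 0.05 (SE, n = 4 each, limma adjusted p = 1.11e-10), which leaves 9.74% of the Med13 level (95% interval 8.99% to 10.6%). skd stood at 9.27, 9.10, 9.30 and 9.38 with Med12 dsRNA, against 8.80, 8.51, 8.70 and 8.71 with Med13 dsRNA. The controls, at 8.90 to 9.14, lay between these groups, overlapping the Med12 arrays only at their lower end and none of the Med13 arrays. The difference was 0.58 ± 0.07 (SE, n = 4 each, limma adjusted p = 0.00759). Relative to the control mean skd was at 121% with Med12 dsRNA and at 80.6% with Med13 dsRNA, so part of the contrast in skd is a higher level in the Med12 arrays. An exact two-sided permutation test over the 8 arrays gave p = 0.0286 for kto and p = 0.0286 for skd, the smallest value that 70 splits allow.

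The second skd probe set differed in the same direction with more spread. It stood at 8.11, 7.78, 8.25 and 8.12 with Med12 dsRNA and at 7.45, 7.65, 7.16 and 7.92 with Med13 dsRNA, where the groups overlapped through 1 array of each. An exact two-sided permutation test gave p = 0.0571 for it. The controls ranged from 7.60 to 7.88, a range that held 1 Med13 array (7.65) and 1 Med12 array (7.78). Another Med13 array (7.92) lay above every control. Relative to the control mean this set was at 126% with Med12 dsRNA and at 88.1% with Med13 dsRNA. A depletion of skd in the Med13 arrays is therefore not clear on this set. Where each dsRNA lies relative to the probes is not stated, and protein was not measured, so these values do not give the degree of Med13 loss. The other module transcripts were close in the 2 groups. Cdk8 differed by 0.03 ± 0.05 and CycC by 0.04 ± 0.05 (SE, n = 4 each, limma adjusted p of 0.912 and 0.842), with 95% intervals of 93.8% to 111% and 94.9% to 112% of the Med13 level.

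**Figure D1:**
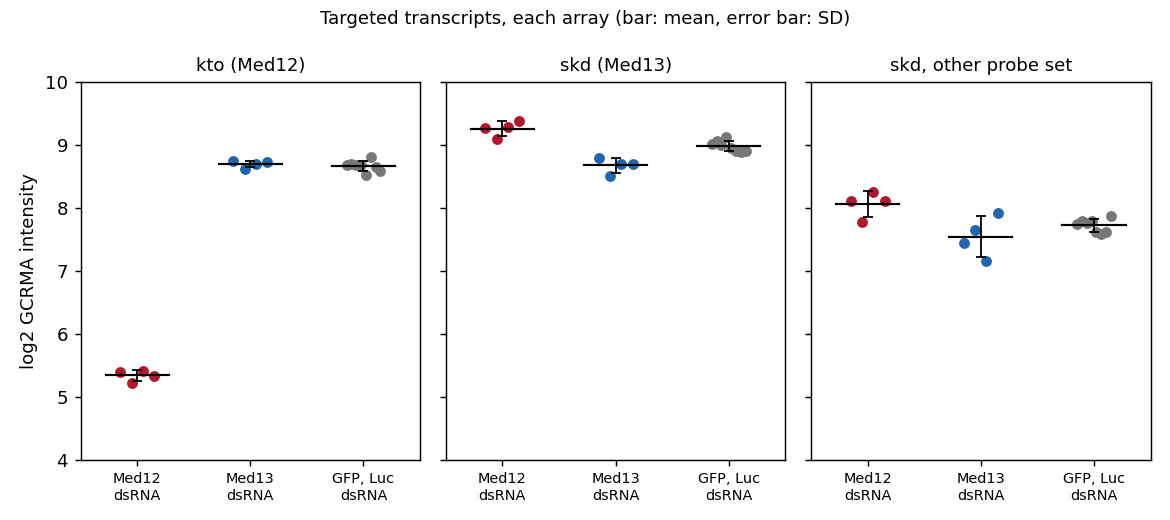
Log2 GCRMA intensity of kto and of both skd probe sets on each array with Med12, Med13 or control (GFP and Luc) dsRNA; points are arrays, horizontal bars means and error bars SD (n = 4, 4 and 8). kto is low in the 4 Med12 arrays alone (5.22 to 5.42). On its brighter probe set skd is lower in the 4 Med13 arrays (8.51 to 8.80) than in the 4 Med12 arrays (9.10 to 9.38).

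Beyond the targets, the transcript profiles differed little. Of 5920 genes tested, 35 passed an adjusted p of 0.05, which is 0.591% of them. Med12 dsRNA gave the lower level in 28 (0.473%) and the higher in 7 (0.118%), targets included. In each of the 35 the 4 arrays of one dsRNA lay beyond all 4 of the other, a separation seen in 362 genes, 6.11% of those tested. The size was modest. The median of these 35 was 0.41 on the log2 scale, 8 of them reached 0.5, and kto alone reached 1. Across all genes the median absolute difference was 0.05 and the highest 1% exceeded 0.35. The 95% interval of the difference lay inside ±0.5 (1.41-fold) for 5799 genes, 98.0% of all. For these a larger difference in either direction lies outside that interval. Called genes such as GstD3 (interval -0.31 to -0.15) are among them, so an interval inside this margin does not mean that a gene is unchanged. At an unadjusted p of 0.05 the count was 642 genes (10.8%), where 5% of the genes tested is 296.

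The arrays themselves showed the same picture. Correlations between a Med12 and a Med13 array ran from 0.9961 to 0.9980, and those between 2 arrays of the same dsRNA from 0.9967 to 0.9982. The median absolute difference between 2 arrays was 0.0811 over the 16 pairs across dsRNAs and 0.0741 over the 12 pairs within a dsRNA. The first principal component held 28.4% of the variance and put the Med12 arrays at -5.87 to -2.21 and the Med13 arrays at 1.64 to 5.83, with no overlap. The targets kto and skd were among the genes used for these values. Whether the arrays separate without them was not tested.

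The count of 35 depended on single arrays. It was 11 without the Med12 2 array, 10 without Med12 3, 21 without Med12 4, 13 without Med13 2 and 17 without Med13 4, and between 30 and 46 without any of the others. GstD2 was over the floor only in the Med13 arrays, which had let it into the test. Of the 35 genes, 9 passed in all 8 of these fits, namely kto, skd, fbp, gas, dpr17, GstD2, CG30046, CG33462 and CG43795. Among the genes lower with Med12 dsRNA, CG31145 and CG32407 passed in none, and Sgsh, Prip, CG8501 and CG5707 in 1 each. CG43103, CG15695, CG18549 and GstE3 passed in 2 each, and GstD3, CG16762 and Obp56h in 3 each. When the estimate of spread came from all 22 arrays, the count was 52, of which 26 were among the 35. The 9 that were lost, at an adjusted p of 0.0532 to 0.32, were GstD2, gas, CG33462, CG43795, dmGlut, CG16762, GstE3, Prip and CG15890. The genes kto, skd, fbp, dpr17 and CG30046 passed in both kinds of fit, but of these kto alone kept its call with no filter on low values. All 35 kept their direction under every alternative in which they were measured.

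**Figure D2:**
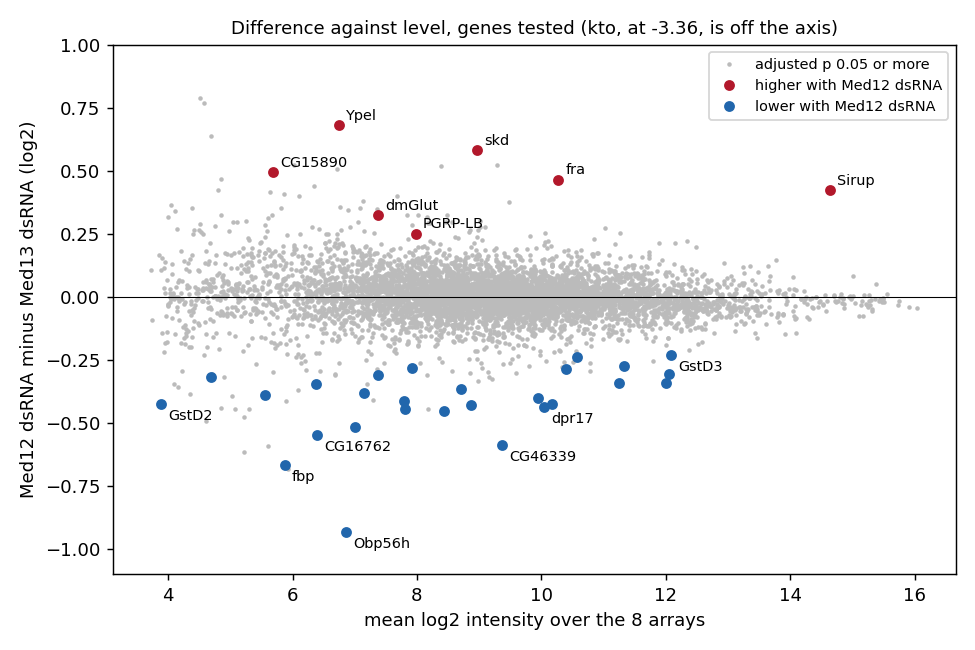
Difference (Med12 dsRNA minus Med13 dsRNA, log2) against mean log2 intensity over the 8 arrays for the genes tested; red points are genes past the threshold and higher with Med12 dsRNA, blue points those lower, grey points the others. Most genes lie close to 0 at every level, Obp56h (-0.93) and Ypel (0.68) are the outermost of the coloured points, and kto (-3.36) is off the axis.

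fbp, which encodes fructose-1,6-bisphosphatase, an enzyme of gluconeogenesis, stood at 5.42, 5.59, 5.55 and 5.61 with Med12 dsRNA, against 6.11, 6.19, 6.13 and 6.40 with Med13 dsRNA. The groups were separate, and the controls (4.78 to 5.58, median 5.39) overlapped the Med12 arrays and none of the Med13 arrays. The difference was -0.67 ± 0.07 (SE, n = 4 each, limma adjusted p = 0.00431), or 0.63 times the Med13 level. Of the 16 measured genes of glycolysis and sugar metabolism it was the only call. The list median was 0.08 against 0.00 over all genes, and 13 of its members had a positive difference, where 50.1% of all genes did. Pfk, whose product opposes fbp in glycolysis, differed by 0.26 ± 0.07, the triose-phosphate isomerase gene Tpi by 0.22 ± 0.06 and the glycogen branching enzyme gene AGBE by 0.19 ± 0.05 (SE, n = 4 each, limma adjusted p of 0.167, 0.185 and 0.24). The glycogenin gene Gyg, which primes glycogen and was singled out after its value was seen, had the largest positive difference of all genes, 0.79 ± 0.15 (SE, n = 4 each), with limma adjusted p = 0.0515. It stood at 4.35, 5.01, 5.09 and 5.15 with Med12 dsRNA and at 4.09, 4.09, 4.14 and 4.14 with Med13 dsRNA, near the floor. Gyg passed with all 22 arrays in the fit (adjusted p = 0.00829) and in 1 of the 8 fits that left out an array, the one without Med12 1 (1.85e-05, the others up to 0.184). With the replicate number as a block it did not pass (adjusted p = 0.0558).

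The largest difference outside the targets was in Obp56h, of the odorant-binding protein family of small secreted carriers. It stood at 6.49, 6.37, 6.04 and 6.64 with Med12 dsRNA and at 7.38, 7.61, 7.01 and 7.28 with Med13 dsRNA. Both groups lay above every control (4.23 to 5.20), the Med13 arrays furthest. The difference was -0.93 ± 0.14 (SE, n = 4 each, limma adjusted p = 0.0196), or 0.52 times the Med13 level. Of 5 measured Obp genes it was the only call, and the other members ranged from -0.03 to 0.14. Its call was lost in 5 of the 8 fits that left out an array, with the adjusted p at most 0.0699.

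Glutathione transferases, which conjugate glutathione to reactive and foreign compounds, were lower with Med12 dsRNA in GstD3 and GstE3. GstD3 stood at 11.98, 11.93, 11.97 and 11.99 with Med12 dsRNA and at 12.17, 12.20, 12.19 and 12.22 with Med13 dsRNA, with the controls (11.95 to 12.09) below every Med13 array. Its difference was -0.23 ± 0.04 (SE, n = 4 each, limma adjusted p = 0.0198). GstE3 differed by -0.34 ± 0.06 (adjusted p = 0.0432, limma), with 10.93 to 11.17 in the Med12 arrays and 11.32 to 11.49 in the Med13 arrays. GstD2 stood at 3.65 to 3.73 with Med12 dsRNA, under the floor on every array, and at 4.06 to 4.17 with Med13 dsRNA. It entered the test through the Med13 arrays alone, so its difference of -0.43 ± 0.04 (limma adjusted p = 0.00307) is given as a description. The controls (3.82 to 4.81) lay above every Med12 array and overlapped the Med13 arrays.

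GstD2, with the limit just given, and GstD3 are adjacent in the RefSeq gene order, the only called genes within 3 places of each other. The 6 measured GstD genes besides GstD2 all had a negative difference, from -0.26 to -0.08, also with the arrays median-centred and with quantile normalization. GstD7 was at -0.26 ± 0.06, GstD4 at -0.23 ± 0.11, GstD1 at -0.14 ± 0.05, GstD5 at -0.13 ± 0.06 and GstD9 at -0.08 ± 0.05 (SE, n = 4 each). GstD genes are close paralogues, and whether their probe sets share signal was not tested. Of 10 measured GstE genes 5 were negative and 5 positive. In the whole list of glutathione and xenobiotic genes 2 of 31 were called without GstD2 (3 of 32 with it), all lower with Med12 dsRNA, where 0.473% of all genes were called lower. The list median was -0.04 with and without it, against 0.00 over all genes. At an unadjusted p of 0.05 the list had 9 lower and 1 higher member without GstD2, where 5.49% and 5.35% of all genes passed in those directions. Cyp6a20, a cytochrome P450 gene outside the list, was also lower, at 10.22 to 10.29 with Med12 dsRNA and 10.50 to 10.61 with Med13 dsRNA (-0.28 ± 0.04, limma adjusted p = 0.0145). The other 8 measured Cyp6 genes were not called.

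dpr17, an immunoglobulin-domain surface protein of the dpr family, stood at 9.89, 9.85, 9.82 and 9.77 with Med12 dsRNA, against 10.18, 10.21, 10.38 and 10.30 with Med13 dsRNA. The controls (10.34 to 10.63) were above the Med12 arrays and overlapped the highest Med13 array. Its difference was -0.44 ± 0.05 (SE, n = 4 each, limma adjusted p = 0.00753). Nepl4, a neprilysin-like peptidase gene, stood at 9.63 to 9.81 in the Med12 arrays and 10.04 to 10.29 in the Med13 arrays, both below every control (10.82 to 11.20), with a difference of -0.40 ± 0.06 (adjusted p = 0.0198). The other 6 measured Nepl genes were not called, with differences from -0.17 to 0.09. Prip, which encodes an aquaporin water channel, differed by -0.38 ± 0.07 (adjusted p = 0.048), and both groups were far below the controls (8.50 to 9.16), at 6.86 to 7.16 with Med12 dsRNA and 7.25 to 7.42 with Med13 dsRNA. Sgsh, the sulfamidase of lysosomal heparan sulfate breakdown, differed by -0.28 ± 0.04 (adjusted p = 0.0229).

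Most other genes lower with Med12 dsRNA are known by a number only. CG30046 stood at 8.19, 8.15, 8.24 and 8.26 with Med12 dsRNA and at 8.56, 8.63, 8.67 and 8.79 with Med13 dsRNA (-0.45 ± 0.05, adjusted p = 0.00753). Both groups were below every control (8.91 to 9.39). CG46339 differed by -0.59 ± 0.08, CG16762 by -0.55 ± 0.09, CG15347 by -0.44 ± 0.06, CG15695 by -0.43 ± 0.07, CG8501 by -0.41 ± 0.07 and CG43795 by -0.39 ± 0.05 (SE, n = 4 each, limma adjusted p of 0.00753 to 0.0315). gas stood at 6.78, 6.85, 6.72 and 6.60 with Med12 dsRNA and at 7.22, 7.29, 7.20 and 7.30 with Med13 dsRNA (-0.52 ± 0.06, adjusted p = 0.00431). The control range of 7.01 to 7.53 held all 4 Med13 arrays and none of the Med12 arrays. CG33462 stood at 8.68, 8.61, 8.62 and 8.68 with Med12 dsRNA, within the control range of 8.34 to 8.73, and at 8.98, 9.10, 9.01 and 9.21 with Med13 dsRNA, above it (-0.43 ± 0.05, adjusted p = 0.00753). The smaller calls, outside the 15 largest, were CG9360, CG15097, CG5973, CG5707, CG32407, CG18549, CG43103 and CG31145, from -0.37 to -0.24. These 8 genes and Cyp6a20, Prip and Sgsh were named after their values were seen.

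The 6 genes besides skd that were higher with Med12 dsRNA include a receptor, a transporter and an immune regulator. Ypel, of the Yippee-like family of small zinc-binding proteins, stood at 6.97 to 7.24 on the 4 arrays with Med12 dsRNA and at 6.64, 6.12, 6.44 and 6.42 with Med13 dsRNA. The Med12 arrays were above every control (6.08 to 6.55), and the Med13 arrays overlapped them. The difference was 0.68 ± 0.10 (SE, n = 4 each, limma adjusted p = 0.0196), or 1.60 times the Med13 level. fra, the receptor for the guidance cue netrin, stood at 10.36, 10.60, 10.54 and 10.52 with Med12 dsRNA and at 10.14, 10.05, 10.04 and 9.93 with Med13 dsRNA (0.46 ± 0.06, adjusted p = 0.0112). The controls, at 10.06 to 10.45, overlapped both groups.

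Sirup, an assembly factor of succinate dehydrogenase, stood at 14.69, 14.96, 14.89 and 14.85 with Med12 dsRNA and at 14.45, 14.51, 14.52 and 14.22 with Med13 dsRNA (0.42 ± 0.08, adjusted p = 0.0472). The controls (14.56 to 14.91) lay above every Med13 array and overlapped the Med12 arrays. The 28 measured genes of the respiratory chain had no call, none at an unadjusted p of 0.05 in the limma fit, and a median of -0.03. PGRP-LB, an amidase that degrades peptidoglycan and restrains the Imd immune pathway, stood at 8.03 to 8.18 with Med12 dsRNA and 7.80 to 7.91 with Med13 dsRNA, both above every control (7.14 to 7.61), with a difference of 0.25 ± 0.04 (adjusted p = 0.0374). The glutamate transporter gene dmGlut differed by 0.32 ± 0.05 (adjusted p = 0.0229) and CG15890 by 0.50 ± 0.09 (adjusted p = 0.0486). These last 4 genes passed in only 1 to 3 of the 8 fits that left out an array. Sirup also lost its call with the arrays median-centred and with quantile normalization, and CG15890 with quantile normalization.

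**Figure D3:**
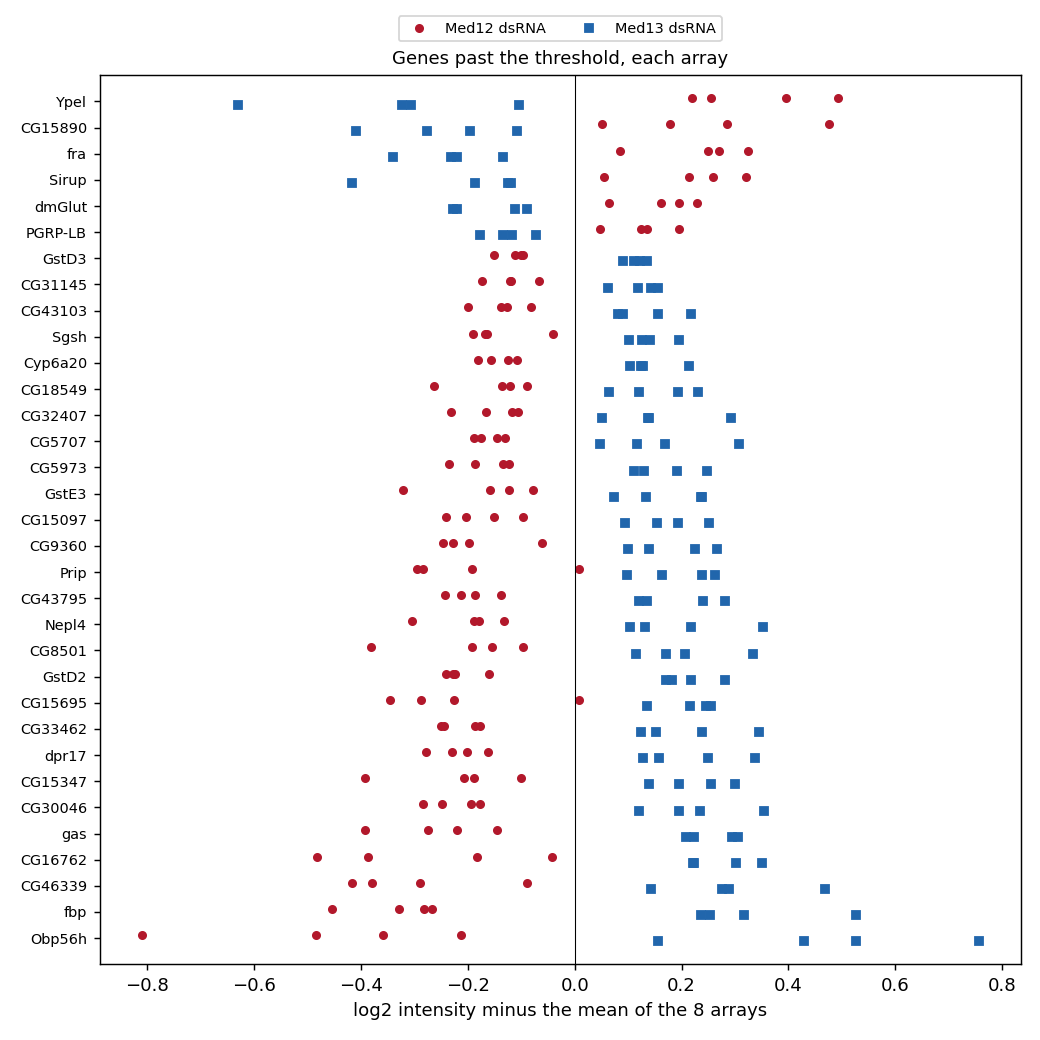
Log2 intensity of each called gene except the targets, minus its mean over the 8 arrays; red circles are the 4 Med12 arrays and blue squares the 4 Med13 arrays. The groups do not overlap in any row, and the gap is narrow beside the spread in rows such as Prip and CG15695.

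To place each level, the GFP and Luc arrays were set beside the 33 called genes other than the targets. Each knockdown was taken minus the average of the GFP mean and the Luc mean, in a fit of all 22 arrays, so both sets of values share the same 8 controls. The 33 genes were picked on a difference between these same Med12 and Med13 arrays, which favours a call with a single dsRNA. The shares of all genes below are therefore given for scale and are not a test. GstD2, which entered through the Med13 arrays alone, is among the 33. In that fit 42.1% of all tested genes were called for Med12 (26.7% higher and 15.4% lower than controls) and 32.2% for Med13 (21.1% higher and 11.1% lower). The largest class held 13 genes called below the controls with both dsRNAs, all of them lower with Med12. Of all genes 9.46% were called below the controls with both, whichever dsRNA gave the lower level. Prip led the class at -1.93 ± 0.08 with Med12 dsRNA and -1.55 ± 0.08 with Med13 dsRNA (SE, n = 4 against 8). CG9360 was at -1.60 ± 0.05 with Med12 dsRNA and -1.24 ± 0.05 with Med13 dsRNA. A further 6 genes were called below the controls with Med12 dsRNA and not called with Med13 dsRNA, a class of 5.90% of all genes, among them gas (-0.52 ± 0.12 with Med12 and -0.01 ± 0.12 with Med13) and CG16762 (-0.56 ± 0.13 and -0.01 ± 0.13).

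Other genes lay above the controls with Med13 dsRNA. Obp56h, CG15347, CG43103 and CG32407 were called above them with both dsRNAs, as were 18.1% of all genes, and were higher with Med13, Obp56h at 1.63 ± 0.16 with Med12 dsRNA and 2.57 ± 0.16 with Med13 dsRNA. fbp, CG33462, GstD3 and CG5707 were called above the controls with Med13 dsRNA and not called with Med12 dsRNA, as were 3.06% of all genes, fbp at 0.23 ± 0.11 with Med12 and 0.89 ± 0.11 with Med13. Among the 6 genes higher with Med12 dsRNA, dmGlut and PGRP-LB were called above the controls with both, Ypel, fra and CG15890 with Med12 alone (8.62% of all genes), and Sirup was called below them with Med13 alone (1.64% of all genes). Sirup was at 0.14 ± 0.08 with Med12 and -0.28 ± 0.08 with Med13. The Med13 mean lay closer to the controls than the Med12 mean in 24 of the 33 genes, 72.7%, where this held for 62.4% of all genes. Because the 33 were picked with the same arrays, these shares cannot be set against each other as a test.

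**Figure D4:**
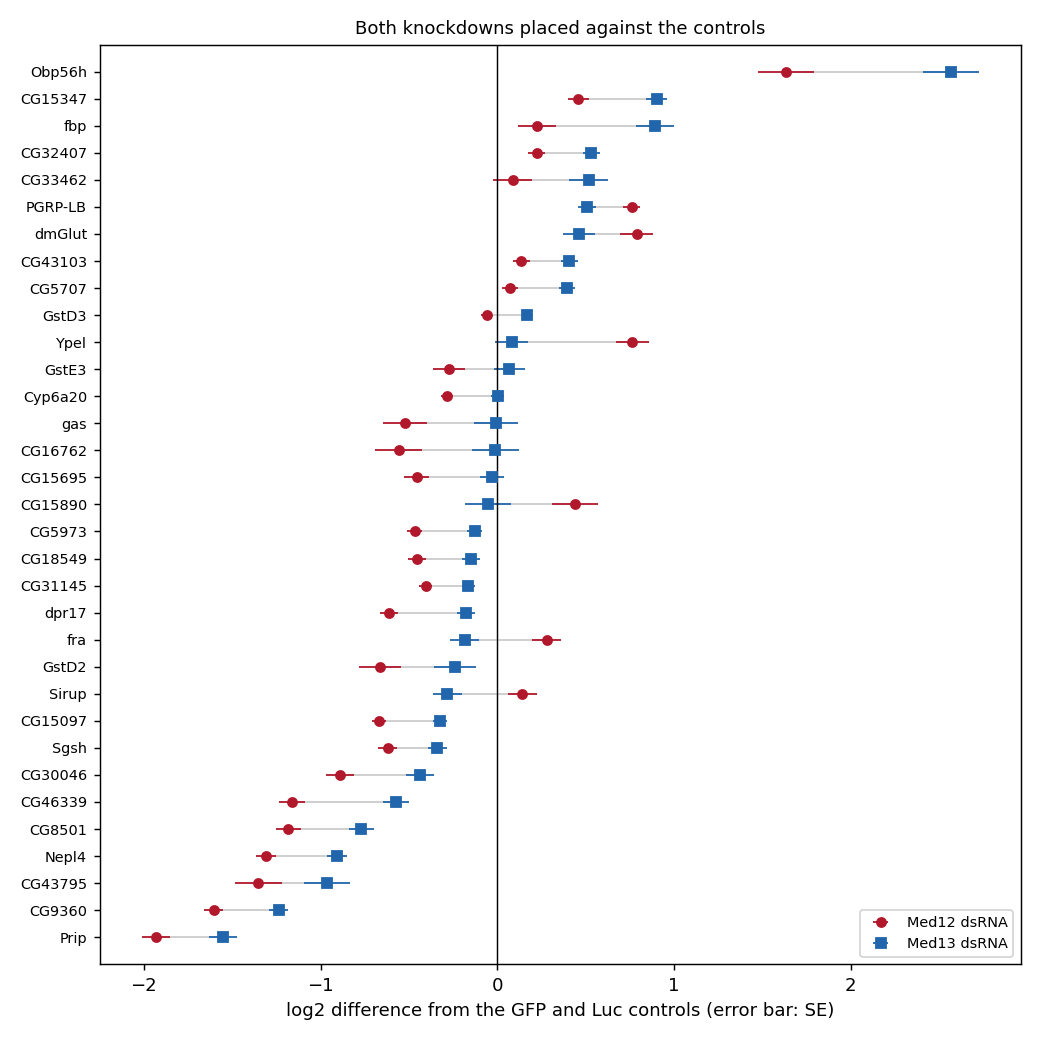
Log2 difference of Med12 dsRNA (red circles) and Med13 dsRNA (blue squares) from the GFP and Luc controls for the same genes, ordered by the Med13 value; error bars are SE (n = 4 against 8). Prip (-1.93 and -1.55) and Obp56h (1.63 and 2.57) mark the ends, and in each row the dsRNAs are separated by the difference tested directly.

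Some of these genes stood elsewhere with dsRNA against the kinase. CG8501, at -1.18 ± 0.07 with Med12 dsRNA and -0.77 ± 0.07 with Med13 dsRNA against controls, was at 1.08 ± 0.09 with Cdk8 dsRNA (SE, n = 2 against 8). CG32407 was at 0.22 ± 0.05 with Med12 dsRNA and 0.53 ± 0.05 with Med13 dsRNA, against -0.77 ± 0.06 with Cdk8 dsRNA. CG33462 was at 0.09 ± 0.11 with Med12 dsRNA and 0.52 ± 0.11 with Med13 dsRNA, against -3.08 ± 0.14 with Cdk8 dsRNA. With CycC dsRNA CG8501 was at 1.20 ± 0.07, CG32407 at -0.68 ± 0.05 and CG33462 at -2.92 ± 0.11 (SE, n = 4 against 8). These 3 genes were picked after their values were seen. Other called genes lay on the same side of the controls with Cdk8 dsRNA as with both others. Among them were CG9360 (-0.97 ± 0.07 with Cdk8 dsRNA), Prip (-0.90 ± 0.10) and dmGlut (0.60 ± 0.12). The values share their controls and are given side by side only.

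Genes that respond strongly to both knockdowns were also looked up. This group of 18 was chosen with earlier results of these data known and is a description. The choice favours large responses, so a difference smaller than the response is not a result about these genes. TwdlE (3.27 to 3.97), He (3.04 to 4.24) and CG4250 (3.32 to 4.21) did not reach the floor on 2 of the 8 arrays. He and CG4250 were above it on 1 Med13 array each and TwdlE on none, so no difference between the dsRNAs could be read from them. Of the 15 measured, Obp56h alone was called, and 6 had a 95% interval inside ±0.5. The median difference of the 15 was 0.14. Epac, a cAMP-activated exchange factor, stood at 7.04, 6.96, 7.06 and 6.80 with Med12 dsRNA and at 6.42, 6.66, 6.16 and 6.60 with Med13 dsRNA, above every control (4.43 to 5.29). Its groups did not overlap, and the difference of 0.51 ± 0.10 had a limma adjusted p = 0.067, which became 0.0338 with all 22 arrays in the fit. CG9098 (0.47 ± 0.09, adjusted p = 0.0515), CG30148 (-0.44 ± 0.09, adjusted p = 0.0668) and CG11686 (0.25 ± 0.05, adjusted p = 0.0733) were likewise just outside the threshold.

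For the other strong responders the replicate spread was wide or the values close. sn, the actin-bundling fascin, stood at 6.07, 5.13, 5.78 and 5.39 with Med12 dsRNA and at 6.38, 6.47, 5.68 and 6.57 with Med13 dsRNA, where the groups overlapped through the Med13 3 array. Its difference of -0.68 had a 95% interval of -1.18 to -0.18 (limma adjusted p = 0.302). The antifungal peptide gene Mtk stood at 4.98, 4.95, 4.82 and 5.30 with Med12 dsRNA and at 3.60, 5.18, 4.27 and 4.44 with Med13 dsRNA. Its 0.64 had an interval of 0.05 to 1.23 (adjusted p = 0.409), and its Med13 values include 1 array under the floor. CG5397 differed by 0.40 (interval 0.10 to 0.70) and CG7702 by 0.20 (0.01 to 0.39), with adjusted p of 0.303 and 0.419. The scavenger receptor gene Sr-CI differed by 0.25 (interval -0.04 to 0.53) and the gap junction gene ogre by 0.14 (-0.10 to 0.39). The phagocytic receptor gene NimC4 differed by -0.18 (-0.52 to 0.16). Its values lay on both sides of the floor, at 3.67 to 4.31 with Med12 dsRNA and 3.78 to 4.30 with Med13 dsRNA. CG5001 differed by -0.04 (-0.21 to 0.13), Fie by 0.05 (-0.21 to 0.31) and CG31445 by 0.05 (-0.21 to 0.30).

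Across the gene lists, 3 of 35 besides the module and the strong responders held a call. They were sugar metabolism (fbp), glutathione and xenobiotic genes (GstD3 and GstE3, and GstD2 with the limit given above) and the Imd pathway (PGRP-LB, 1 of 14, list median 0.01). The list medians ran from -0.10 to 0.17, against 0.00 over all genes. None of the 22 measured genes of core and tail Mediator was called, and all 22 had a 95% interval inside ±0.5. The same held for all 31 genes of the cell cycle and DNA replication (median -0.04), all 17 transcription kinases and cyclins (0.00), all 23 RNA polymerase II and general factor genes (0.00), all 15 genes of RNA interference (0.03) and all 16 of lipid synthesis (0.03). At an unadjusted p of 0.05 in the limma fit, no gene of the cell cycle list or of the kinase list passed. In the others 5 did, where 10.8% of all genes passed. They were 1 of 22 in Mediator (MED25, 0.11 ± 0.04) and 1 of 15 in RNA interference (piwi, 0.27 ± 0.07; SE, n = 4 each). The rest were 1 of 23 among RNA polymerase II and general factors, and 1 higher and 1 lower of 16 in lipid synthesis.

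The lists of immune genes other than the Imd pathway held no call. Of 6 measured antimicrobial peptide genes none passed the adjusted threshold in the limma fit, while 3 were higher and 1 lower with Med12 dsRNA at an unadjusted p of 0.05, where 5.35% of all genes were higher and 5.49% lower. The infection-induced gene edin stood at 10.50, 10.73, 10.54 and 10.75 with Med12 dsRNA and at 10.89, 10.98, 10.94 and 10.89 with Med13 dsRNA, without overlap (-0.29 ± 0.06, adjusted p = 0.0791). AttD was at 0.29 ± 0.10 and Drs at 0.29 ± 0.13. Of 10 Toll pathway genes none was called, with the Pellino gene Pli at 0.30 ± 0.06, the ligand gene spz at -0.16 ± 0.05 and the NF-κB gene dl at 0.18 ± 0.05. The Imd inhibitor gene pirk was at 0.30 ± 0.11. Of 8 measured haemocyte receptor genes none was called, with Hml at -0.18 ± 0.04 and the phagocytic receptor gene eater at -0.20 ± 0.05. In the matrix list of 13 genes the peroxidasin gene Pxn was at 0.33 ± 0.07 (adjusted p = 0.0976, limma).

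Signalling lists also held no call. In the limma fit the genes with an unadjusted p under 0.05 included the FGF ligand genes bnl (0.34 ± 0.10) and pyr (-0.25 ± 0.09), the Ras activator gene Sos (0.18 ± 0.05), the cAMP phosphodiesterase gene dnc (-0.34 ± 0.11), the Dpp receptor gene tkv (0.14 ± 0.04) and the JAK/STAT receptor gene dome (0.15 ± 0.05; SE, n = 4 each). By list, 2 of 12 EGFR, FGF and Ras genes were higher and 1 lower, and 3 of 10 hedgehog and Dpp genes were higher. Of 7 cAMP genes 1 was higher and 1 lower. The JAK/STAT and Notch lists had 1 higher of 5 each and the ecdysone list 1 of 7. The Hippo (8) and Wingless (4) lists had none, and of all genes 10.8% passed. The bnl values were near the floor, at 3.85, 4.10, 3.70 and 4.09 with Med13 dsRNA. None of the 26 measured proteasome genes passed even an unadjusted p of 0.05 in the limma fit. All 26 had intervals inside ±0.5, with differences from -0.10 to 0.01, a median of -0.06 and 25 of 26 negative. After quantile normalization 24 were negative with a median of -0.04. Of all genes 50.1% were positive. Negative differences also prevailed in the mitochondrial ribosome (46 of 61) and respiratory chain (22 of 28) lists, and positive ones in the Hippo list (7 of 8). Members of a list are not replicates, and a shift of any list as a set was not tested. Of 19 genes for protein folding and stress in the endoplasmic reticulum none was called, 4 were lower at an unadjusted p of 0.05 in the limma fit (5.49% of all genes) and 15 were negative, with the chaperone gene Gp93 at -0.14 ± 0.05. The direction of this list was not checked after quantile normalization. In the cytosolic ribosome list 20 of 23 were negative with a median of -0.02, but 12 of 23 after quantile normalization, so that no direction can be given there.

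**Figure D5:**
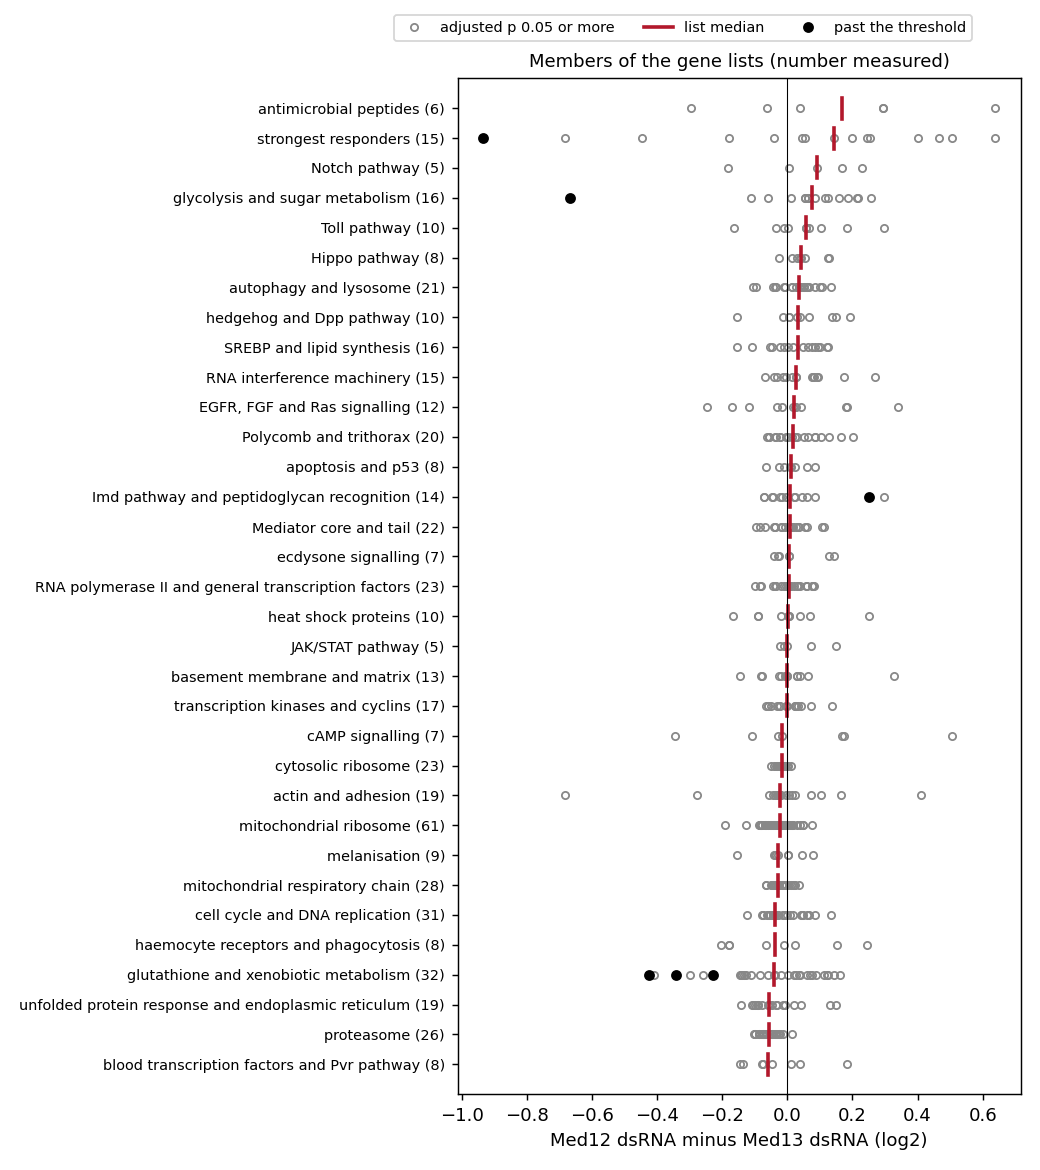
Differences (Med12 dsRNA minus Med13 dsRNA, log2) of the members of each list with at least 5 measured genes, the targets left out; open circles are genes that were not called, filled circles called genes and red bars list medians. The medians lie near 0, and the filled circles are Obp56h (-0.93), fbp (-0.67), GstD2, GstE3, GstD3 and PGRP-LB (0.25).

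Genes beside the called ones in the genome were looked up in the RefSeq gene order. Of 28 measured next neighbours 2 were called, GstD2 and GstD3, which neighbour each other. GstD2 entered the test through the Med13 arrays alone, so this pair is given as a description. GstD1 was counted only as a neighbour of GstD2. In the limma fit 10 passed an unadjusted p of 0.05 (35.7%), and 8 of the 26 besides these calls, where 10.8% of all genes did. The 8 include GstD1 and GstE2, of the same families as their called neighbours, and signal shared between their probe sets was not tested. They also include GILT3 (0.28 ± 0.06), whose direction was opposite to that of its called neighbour CG31145 (-0.24 ± 0.04). Whether neighbours move together was not tested. The neighbours of kto, CG32221 (-0.06 ± 0.05) and Papss (-0.08 ± 0.08), and that of skd, Pdss2 (0.02 ± 0.09; SE, n = 4 each), had no call in the limma fit.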

How the data were processed

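Affymetrix arrays measured total RNA of S2 cells. The deposited intensity values, 1 per probe set and array, were made with GCRMA (background correction by base composition, normalization between arrays, summary of probes), per the submitters' processing notes. Its version, settings and the probe annotation's build are not given in the sources used here. GCRMA shrinks weak signals and fixes the overall level of each array. Values were linear (2.02 to 70939) and log2 was taken. Of 18952 probe sets, 183 controls were left out, and 13647 had a single gene symbol, 402 several and 4720 none. Gene identifiers matched 13544 in a RefSeq gene table (Release 6), used for names and neighbours. A probe set was kept at log2 4 or more (intensity 16) on at least 2 of the 8 arrays, and the brightest represented a gene (323 genes had several). No detection calls were used, and the number of arrays limits the precision. Lists and the 22-array contrasts used the same 5920 genes.

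limma 3.58.1 in R 4.3.3 fitted the 8 arrays (lmFit, eBayes, 6 residual and 4.03 prior degrees of freedom, median SD 0.0748), two-sided, with Benjamini-Hochberg adjustment at 0.05. The fit was tested on simulated data. Named were the 4 module genes, the 15 largest calls each way, up to 4 members of each list and the strong responders. The members and lists were chosen with earlier results of these data known.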

Additional observations from a re-analysis of the deposited data

Results flagged for a closer look

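Single arrays stood apart from the other 3 of their group in 8 of 196 groups of 4 checked among the named genes, 4.08%, where chance gives about 5%. The value that marked each is the gap to the nearest array divided by the range of the group. The Med12 4 array was high for Sgsh (7.88 against 7.73 to 7.75, gap 0.831). The Med12 3 array was low for CG30148 (7.67 against 8.03 to 8.08, gap 0.888) and for the Dpp receptor gene tkv (9.11 against 9.18 to 9.19, gap 0.835). The Med12 2 array was high for CG31445 (5.28 against 5.05 to 5.06, gap 0.952). The Med13 3 array was high for the antimicrobial peptide gene AttD (5.22 against 4.77 to 4.80, gap 0.941), and without it AttD passed the threshold (0.40, adjusted p = 0.0269 in the limma fit). For Pfk the Med12 1 array was low (8.81 against 9.01 to 9.04, gap 0.877) and the Med13 3 array high (8.86 against 8.65 to 8.68, gap 0.845). The Med13 1 array was low for mRpS14 (9.70 against 9.85 to 9.86, gap 0.950).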

How the results depend on the processing

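The 35 called genes kept their direction under the 17 alternatives, in each in which they were measured, while the count moved. It was 52 with all 22 arrays in the fit, 41 after centring, 47 after quantile normalization, 42 with a filter at log2 6, 40 with a pseudocount of 16, 40 with the mean of a gene's probe sets, 65 with a robust prior that follows the level, and 5 with no filter on low values, where 11982 genes were tested. With the replicate number as a block it was 20, of which 18 were among the 35, the deviations of same-numbered arrays correlated at -0.09 to 0.16 and the best match of an array was never the array of its own number. Without single arrays it ranged from 10 to 46. Tested as separate probe sets, an alternative added after seeing the data, 34 of 7225 passed. kto ranged from -3.38 to -3.32 without single arrays. skd lost its call (adjusted p = 0.0905, at 0.58) with no filter and in no other alternative. Of the 35 genes only 4 passed with no filter. fbp, dpr17 and CG30046 also lost their calls there, each at a limma adjusted p of 0.0529, and in no other alternative. Of the uncalled strong responders near 0, 3 changed sign without single arrays: CG5001 ranged from -0.102 to 0.012, Fie from -0.036 to 0.14 and CG31445 from -0.020 to 0.165. The share of calls higher with Med12 dsRNA was 20% and ranged from 10% to 32.6% without single arrays.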

Other observations

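Probe sets without a single gene symbol were left out of the gene test. Of 875 of them over the floor, 3 passed the threshold in the fit of all probe sets. A probe set shared by the cytochrome P450 genes Cyp12d1-d and Cyp12d1-p stood at 8.32, 8.20, 8.26 and 8.29 with Med12 dsRNA and at 8.59, 8.63, 8.64 and 8.58 with Med13 dsRNA (-0.34 ± 0.04 SE, n = 4 each, limma adjusted p = 0.00905). An unnamed probe set stood at 10.06, 10.18, 10.01 and 10.26 with Med12 dsRNA and at 9.58, 9.63, 9.58 and 9.60 with Med13 dsRNA (0.53 ± 0.06, adjusted p = 0.0054), and another at 7.29, 7.16, 7.34 and 7.31 with Med12 dsRNA and at 6.83, 6.72, 6.88 and 6.95 with Med13 dsRNA (0.43 ± 0.06, adjusted p = 0.0173).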
